A study of Homo sapiens with 9 samples.

Results

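Hydroxyurea (HU) and thymidine with nocodazole (Thy-Noc) were compared directly in Raji, a long-established human line of Burkitt lymphoma B cells. The comparison took the 3 HU and the 3 Thy-Noc libraries from the 9 RNA-seq libraries of the series, and every gene with a CPM (the usual depth-scaled read count) of at least 1 in at least 3 of the 9. That kept 11346 of 15436 listed genes, each held under its Ensembl gene ID. At the edge of this filter, the third-highest library of FRMD4A reached 1.0 CPM and that of RPS3AP5 reached 0.997 CPM, so FRMD4A was kept and RPS3AP5 was not. The remaining 3 libraries came from Raji cells given DMSO, a common solvent. They entered the fit for the estimate of spread and served as the reference level. All 9 libraries share this single cell line, and the labels name no genetic change in any group. The sources used here state no dose or duration, nor the order in which thymidine and nocodazole were added. Nothing says that the 3 libraries of a group came from separate cultures, so the p-values measure only the spread between these libraries, which may be technical.

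Hydroxyurea inhibits ribonucleotide reductase, the enzyme that makes deoxyribonucleotides, and so holds cells in S phase by starving replication forks. Excess thymidine also unbalances the deoxyribonucleotide pool and stops cells at or in S phase. Nocodazole blocks the assembly of microtubules, and cells that reach mitosis in its presence are held there by the spindle checkpoint. Transcripts for mitosis build up from late S phase to mitosis and are low earlier in the cycle, under repression through a promoter element called the cell-cycle genes homology region (CHR). In B cells, nuclear factor kappa B (NF-kB), the interferon pathway and the immediate early transcription factors are the main routes by which stress and receptor signals reach transcription.

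The level of 199 of the 11346 genes (1.75%) differed between HU and Thy-Noc at an adjusted p under 0.05 in the quasi-likelihood test of edgeR, adjusted by the Benjamini-Hochberg method, and these genes are termed called. Of them, 79 (0.696%) were higher in HU and 120 (1.06%) were higher in Thy-Noc. The genes higher in HU moved further, with a median size of 1.28 on the log2 scale against 0.84 for those higher in Thy-Noc. At least 2-fold differences were seen for 55 of the former and 42 of the latter. The libraries of the 2 groups did not overlap for any of the 199, nor for 2825 (24.9%) of all genes tested. With 3 libraries a group, a gene that overlaps can hardly be called. Lack of overlap, here and for single called genes below, is thus no separate evidence. The mean of the DMSO libraries lay nearer to Thy-Noc than to HU for 191 of the 199 (96%), beside 7458 of all 11346 genes (65.7%). In the same fit, 404 genes (3.56%) were called between HU and DMSO and 4 (0.0353%) between Thy-Noc and DMSO (CRIP3, FCRL3, SETD2 and SLBP), where 510 (4.49%) had an unadjusted p under 0.05. Both of those comparisons share the DMSO libraries, and each shares libraries with HU against Thy-Noc.

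**Figure D1:**
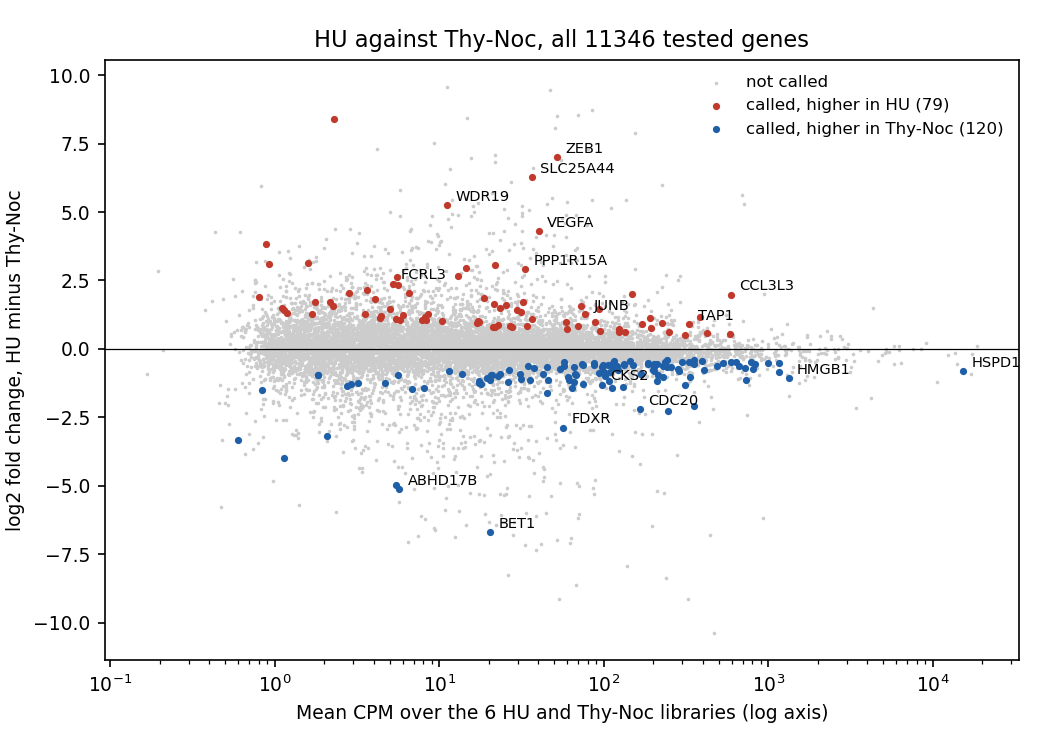
Each point is 1 of the 11346 tested genes, with its mean CPM over the 6 HU and Thy-Noc libraries on a log axis (x) and its log2 fold change of HU over Thy-Noc (y). Grey points were not called, the 79 red points were called higher in HU, and the 120 blue points were called higher in Thy-Noc. Most blue points lie closer to the zero line than most red points.

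The number of calls depended on single libraries and on the tool. It was 38 without DMSO 1, 51 without DMSO 2, 40 without DMSO 3, 12 without HU 1, 110 without HU 2, 31 without HU 3, 48 without Thy-Noc 1, 26 without Thy-Noc 2 and 1 without Thy-Noc 3. The gene left in that last fit was ABHD17B, the single gene called in all 9. With the 6 compared libraries alone 18 genes were called, and with DESeq2 1826 were called, which included all 199. Each of the 199 kept its direction in each of these fits in which it was tested. As the groups did not overlap for any of them, these fits could hardly have turned a direction. Scaling to total counts instead of by TMM (trimmed mean of M-values) moved the median of all genes from 0.01 to 0.156 on the log2 scale, and the share of calls that were higher in HU from 39.7% to 70.7%. The values below are relative to the TMM scale.

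Library totals ran from 74940755 to 110485145, and the median tested gene had 1187 counts per library. TMM factors were 1.03 to 1.10 in HU, 0.918 to 1.01 in Thy-Noc and 0.971 to 1.01 in DMSO. For 1549 genes (13.7%) the libraries of HU or of Thy-Noc spanned at least 10-fold after 0.5 CPM was added. None of the 199 called genes was among them, which follows largely from how genes were called, as the test weighs the spread within groups. The B-cell markers MS4A1, CD79A, CD79B, PAX5, CD22, CD74 and HLA-DRA passed the filter, with CD79A, a chain of the B-cell receptor, at 277 to 336 CPM in HU and 244 to 285 CPM in Thy-Noc. None of the 15 T and NK cell markers or of the 15 myeloid markers passed it, and none of the 12 erythroid and platelet markers did. Of 15 epithelial and stromal markers 4 passed, with summed levels of 27.8 to 33.8 CPM in HU, 12.3 to 22.1 CPM in Thy-Noc and 10.9 to 13.1 CPM in DMSO. Their part in the results was not tested. Transcripts of the mitochondrial genome took 1.45% to 1.82% of counts in HU, 1.03% to 1.54% in Thy-Noc and 1.0% to 1.08% in DMSO, and the part of this share in the results was not tested.

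Called genes of mitosis were lower in HU than in Thy-Noc, and their level in Thy-Noc was not called apart from that in DMSO. Among 110 tested members of lists of mitotic kinases, kinetochore proteins, spindle checkpoint proteins, and motors and cytokinesis proteins, 8 (7.27%) were called, and all 8 were higher in Thy-Noc. Over all tested genes 1.06% were called in that direction. An unadjusted p under 0.05 was reached by 41 members higher in Thy-Noc and by 4 higher in HU, where the share over all genes was 9.34% and 10.1%. The median log2 fold change of the 110 was -0.49 for HU minus Thy-Noc, with 88 negative values, against 0.01 over all genes. Set against DMSO, the same median was -0.48 for HU and 0.02 for Thy-Noc. Bulk RNA cannot tell fewer cells in a cell-cycle phase from less RNA per cell.

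The promoters of CDC20, CKS2 and TOP2A are shown because these called mitotic genes carry the CHR letters before their start. Each line gives bases before the RefSeq start (GRCh38.p14), read 5′ to 3′ on the gene's strand, with the match to TTTGAA or its reverse complement in capitals.
CDC20: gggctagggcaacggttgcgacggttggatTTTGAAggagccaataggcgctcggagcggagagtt
CKS2: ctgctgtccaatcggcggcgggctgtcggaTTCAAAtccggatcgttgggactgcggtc
TOP2A: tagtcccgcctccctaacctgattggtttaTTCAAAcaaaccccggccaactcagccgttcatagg
The CDC20 stretch is chr1:43358886-43358951 on the plus strand, and the match shown begins 65 bases before the start. Another match in the CDC20 promoter begins at -178 from the start. The CKS2 stretch is chr9:89311136-89311194 on the plus strand, with the match on the opposite strand and beginning 29 bases before the start. The TOP2A stretch is chr17:40418012-40418077 on the minus strand, with the match shown on the opposite strand and beginning 151 bases before the start. Another match in the TOP2A promoter begins at -194 from the start. The letters TTTGAA, sought on both strands between 250 bases before and 50 after the start, stood in 51 of 93 mitotic promoters with a RefSeq entry (54.8%), in 9.82% of the 8657 promoters of tested genes and in 15.2% of all 35116 RefSeq promoters. Of 65 matches in the mitotic promoters, 45 began between 60 bases before and 40 after the start. The match shown for CKS2 lies in that stretch, and those shown for CDC20 and TOP2A lie outside it. The median log2 fold change was -0.50 for the 51 mitotic genes with the match and -0.42 for the 42 without it, and each set held 4 called genes. Among all called genes with a promoter entry, the letters stood in 9 of 63 higher in HU (14.3%). They stood in 13 of 93 higher in Thy-Noc (14%), so their share did not differ by direction. The letters CCAAT, bound by the factor NF-Y, were found on either strand in 61 of the 93 (65.6%) and in 38.3% of the promoters of tested genes. The median was -0.57 for those 61 genes, 7 of them called, and -0.19 for the other 32, 1 of them called. A match is a run of letters and was not shown here to be bound.

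CDC20, which activates the anaphase-promoting complex and is held in check by the spindle checkpoint, had the largest difference among the called mitotic genes. The CDC20 libraries (ENSG00000117399) stood at 64.7, 41.3 and 70.3 CPM in HU, at 339, 215 and 261 CPM in Thy-Noc and at 211, 211 and 189.9 CPM in DMSO. Every Thy-Noc library was above every HU library, the DMSO libraries were just below the Thy-Noc ones, and the fold was 4.62 higher in Thy-Noc (log2 fold change -2.21 ± 0.24 SE, edgeR adjusted p = 0.0169). CKS2, a small subunit of cyclin-dependent kinases, stood at 54.6, 52.5 and 61.7 CPM in HU, at 157, 127 and 132 CPM in Thy-Noc and at 123, 104 and 125 CPM in DMSO. All HU libraries of CKS2 were low, at a 2.47-fold higher level in Thy-Noc (log2 fold change -1.30 ± 0.13 SE, edgeR adjusted p = 0.0131). CENPF, a large kinetochore protein, read 66.6, 59.7 and 71.3 CPM in HU and 179.5, 137 and 128 CPM in Thy-Noc, which is 2.25-fold higher in Thy-Noc (edgeR adjusted p = 0.0234). The groups were apart without overlap for each of these genes.

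TOP2A, the topoisomerase that untangles sister chromatids, read 155, 116 and 162 CPM in HU, 251, 316 and 281 CPM in Thy-Noc and 306, 276 and 301 CPM in DMSO. That is 1.96-fold higher in Thy-Noc (edgeR adjusted p = 0.0368). CCNA2, cyclin A2, read 46.8, 38.8 and 52.5 CPM in HU and 90.0, 80.4 and 92.7 CPM in Thy-Noc (1.91-fold, edgeR adjusted p = 0.0335). In TOP2A and CCNA2 the HU libraries were the low ones, with HU 2 the lowest of the 3. UBE2S, the ubiquitin-conjugating enzyme that extends chains for the anaphase-promoting complex, was 1.99-fold higher in Thy-Noc (edgeR adjusted p = 0.0422). BUB1, a checkpoint kinase, was 1.73-fold higher, at 167 to 239.7 CPM in HU and 339.6 to 394 CPM in Thy-Noc (edgeR adjusted p = 0.045). TRIP13, an ATPase that disassembles the checkpoint complex, differed least of the 8, at 1.40-fold (edgeR adjusted p = 0.045), with 44.5 to 50.0 CPM in HU and 66 to 67.5 CPM in Thy-Noc. Of the 8 calls, 6 were left without HU 2, 3 without Thy-Noc 1, 0 without HU 1 or Thy-Noc 3, and 2 without any other library. Total-count scaling called 3 mitotic genes higher in Thy-Noc, and DESeq2 called 33.

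By list, 4 of 33 kinases and G2/M genes, 3 of 24 checkpoint and anaphase-promoting complex genes and 1 of 27 kinetochore and centromere genes were called. All were higher in Thy-Noc, where the called share over all genes was 1.06%. The 26 motors and cytokinesis genes had the lowest median, -0.76, and edgeR called none of them, although 12 had an unadjusted p under 0.05 and were higher in Thy-Noc. DESeq2 called 7 of these 26, all higher in Thy-Noc, and limma 0. GTSE1, a microtubule-binding protein of G2 cells, had a log2 fold change of -0.71 at an edgeR adjusted p of 0.0567 and was not called. CENPE, the kinetochore motor, had a log2 fold change of -1.52 at an edgeR adjusted p of 0.0601. These values came close to the threshold without passing it.

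Outside these lists, TUBGCP2 and HAUS4 were called higher in Thy-Noc, HAUS4 being chosen after its value was seen. TUBGCP2, a core subunit of the gamma-tubulin complex, read 124, 51 and 78.8 CPM in HU, 381, 355 and 477 CPM in Thy-Noc and 256, 114 and 205 CPM in DMSO (4.79-fold, edgeR adjusted p = 0.0469). HAUS4, a subunit of the augmin complex that branches microtubules, was 1.96-fold higher in Thy-Noc, at 40.4 to 50.3 CPM in HU against 80.0 to 98.1 CPM (edgeR adjusted p = 0.0234). Of the fits without 1 library, none called TUBGCP2, and those without HU 2 or Thy-Noc 1 called HAUS4. The tubulins themselves gave no edgeR or limma call among 14 tested members, with 2 higher in HU and 1 higher in Thy-Noc at an unadjusted p under 0.05, and 1 in each direction called by DESeq2. TUBA1B, a major alpha-tubulin, read 5355, 5470.4 and 5137 CPM in HU, 6479.5, 7818 and 8407 CPM in Thy-Noc and 7971, 8595 and 8746 CPM in DMSO (log2 fold change -0.51 ± 0.11 SE, edgeR adjusted p = 0.0737). The HU libraries were below the Thy-Noc libraries without overlap, but the difference missed the threshold.

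**Figure D2:**
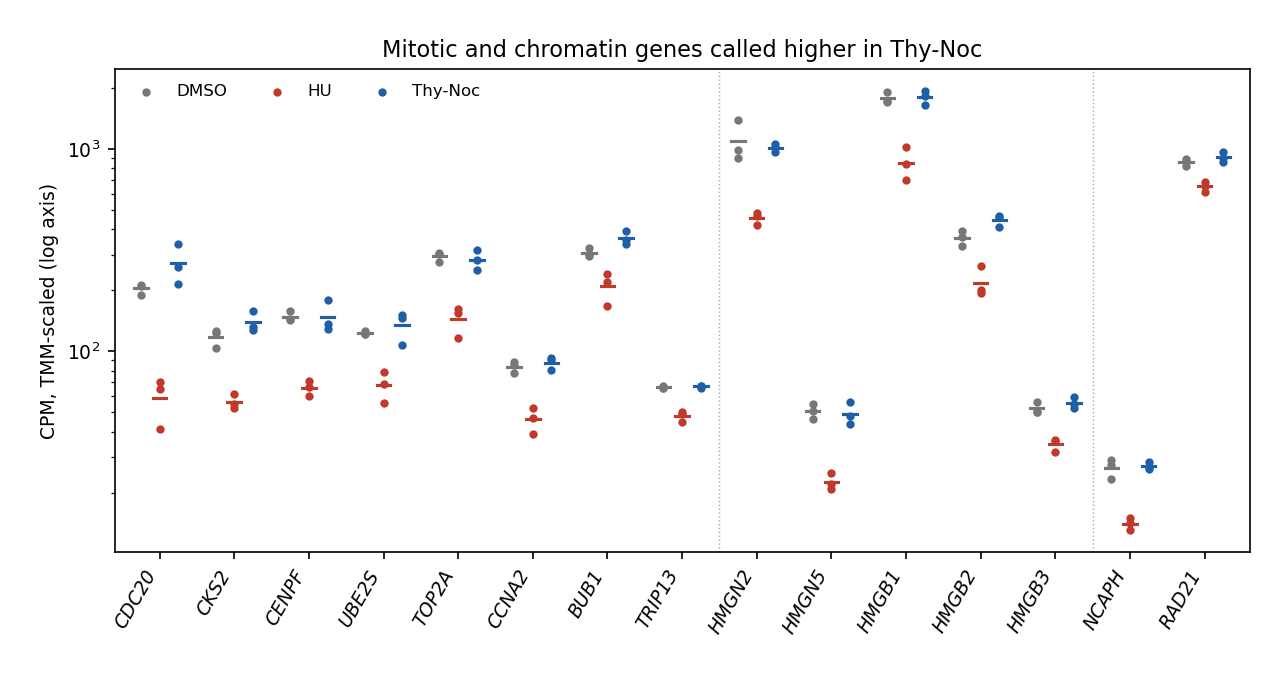
CPM per library on a log axis (y) for genes called higher in Thy-Noc (x), with DMSO in grey, HU in red and Thy-Noc in blue, and a bar at each group's mean. From left to right are mitotic genes, high-mobility-group genes, and NCAPH and RAD21. In each gene the red points lie below the blue ones, and the grey points lie beside the blue ones.

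Called chromatin proteins of the high-mobility-group family, small proteins that bend DNA or bind nucleosomes, were lower in HU. Of 8 tested HMGA, HMGB and HMGN genes 5 (62.5%) were called, all higher in Thy-Noc, beside 1.06% over all genes. All 8 had negative log2 fold changes with a median of -0.85. The family was put together after its values were seen, so its count is a description. HMGB1 read 845, 703 and 1017 CPM in HU, 1828, 1651 and 1931 CPM in Thy-Noc and 1706, 1912 and 1717 CPM in DMSO. All HU libraries lay far below the others, and HMGB1 was 2.11-fold higher in Thy-Noc (log2 fold change -1.08 ± 0.15 SE, edgeR adjusted p = 0.0292). HMGN2 read 463, 421 and 481 CPM in HU, 1016, 963 and 1053 CPM in Thy-Noc and 904, 1385 and 983 CPM in DMSO (2.22-fold, edgeR adjusted p = 0.0315). HMGB2 was 2.04-fold higher in Thy-Noc (edgeR adjusted p = 0.03), HMGN5 2.17-fold (edgeR adjusted p = 0.0238) and HMGB3 1.60-fold (edgeR adjusted p = 0.0385). HMGN4 showed the least difference, with a log2 fold change of -0.05 and a 95% interval of -0.35 to 0.25. HMGN1 (-0.46, edgeR adjusted p = 0.105) and HMGA1 (-0.33, edgeR adjusted p = 0.408) were not called.

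Of the 5 HMG calls, 2 were left without DMSO 2, HU 2 or HU 3, 1 without DMSO 1 or Thy-Noc 1, and 0 without DMSO 3, HU 1, Thy-Noc 2 or Thy-Noc 3. Total-count scaling called 3. Reads of HMGB1 and HMGN2 can be shared with their processed pseudogenes, so the split between parent and copy is uncertain. All 9 processed pseudogenes among the 199 called genes were higher in Thy-Noc. HMGB1P5, for example, read 119.8 to 145 CPM in HU and 267 to 308 CPM in Thy-Noc, 2.25-fold higher (edgeR adjusted p = 0.0131), close to the fold of HMGB1 itself.

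Further chromosome proteins were called in the same direction. NCAPH, a condensin subunit, read 14.1, 13 and 15 CPM in HU, 26.1, 28.4 and 26.7 CPM in Thy-Noc and 23.4, 29 and 27.3 CPM in DMSO (1.93-fold higher in Thy-Noc, edgeR adjusted p = 0.0315). RAD21, the cohesin subunit cut at anaphase, was 1.39-fold higher (edgeR adjusted p = 0.0425). These were 2 calls among 19 cohesin and condensin genes (10.5%), beside 1.06% called higher in Thy-Noc over all genes. No fit that left out a library kept either call, and total-count scaling called 0 of the 19. TOP1, a topoisomerase that relaxes DNA ahead of forks, was 1.78-fold higher in Thy-Noc (edgeR adjusted p = 0.0421), and ANP32B, a histone-binding protein, 1.77-fold (edgeR adjusted p = 0.0142). SUPT16H, a subunit of the histone chaperone FACT, was 1.46-fold higher (edgeR adjusted p = 0.0385). FAM72A, FAM72B, FAM72C and FAM72D, near-identical copies on chromosome 1 whose reads cannot be told apart with certainty, were all called higher in Thy-Noc. FAM72B read 38.1, 43.1 and 50.3 CPM in HU and 105, 112 and 98.6 CPM in Thy-Noc, without overlap (2.40-fold, edgeR adjusted p = 0.0131). All 4 copies stayed called without any 1 DMSO library, without HU 2, HU 3 or Thy-Noc 1, but 2 without Thy-Noc 2, 1 without HU 1 and 0 without Thy-Noc 3.

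Genes of RNA processing, ribosome assembly and protein folding also held calls, each of them lower in HU on the TMM scale. Over all tested genes 1.06% were called higher in Thy-Noc, and 9.34% had an unadjusted p under 0.05 in that direction. Of 12 SNRP genes, which encode core proteins of the spliceosome, 3 were called higher in Thy-Noc and all 12 had negative log2 fold changes, with a median of -0.49. SNRPC, a subunit of the U1 particle, was 1.54-fold higher in Thy-Noc (edgeR adjusted p = 0.0385). SRSF1, a splicing regulator, was 1.56-fold higher (edgeR adjusted p = 0.0481), the 1 call among 11 SRSF genes. Other families looked up held no call: 0 of 21 HNRNP ribonucleoprotein genes (median -0.47) and 0 of 36 proteasome subunits (median -0.21). Without HU 2, 2 SNRP calls were left, and without any other library 0, as for SRSF1 in every such fit. Total-count scaling called 0 SNRP and 0 SRSF genes.

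Of 42 genes of ribosome biogenesis 3 were called higher in Thy-Noc and 14 had an unadjusted p under 0.05 in that direction, with a median of -0.31. LYAR, a nucleolar protein, read 128, 101 and 125 CPM in HU and 247, 179.6 and 235 CPM in Thy-Noc (1.87-fold, edgeR adjusted p = 0.0399). WDR43, a factor of small-subunit assembly, was 1.59-fold higher (edgeR adjusted p = 0.0358), and NHP2, a core protein of box H/ACA particles, 1.44-fold (edgeR adjusted p = 0.0383). None of these 3 calls was kept in a fit without 1 library. With total-count scaling this list of 42 held 0 calls higher in Thy-Noc and 1 higher in HU. DESeq2 called 13 of the 42 higher in Thy-Noc and 2 higher in HU, and limma 4 and 1. The 78 cytosolic ribosomal proteins had no edgeR call (2 higher in HU and 11 higher in Thy-Noc at an unadjusted p under 0.05, and 2 and 5 called by DESeq2), and their median changed sign from -0.07 to 0.05 with total-count scaling. Among 76 mitochondrial ribosomal proteins 4 (5.26%) were called, all higher in Thy-Noc, 59 of the 76 had negative values, and MRPS27 had the largest of the called differences at 1.70-fold (edgeR adjusted p = 0.0383). Of those 4 calls, 1 was left without HU 2 or Thy-Noc 1 and 0 without any other library. Total-count scaling called 1 of the 76, higher in Thy-Noc.

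Chaperones included one of the most abundant called transcripts. HSPD1, the mitochondrial chaperonin HSP60, read 11996, 10164 and 11394 CPM in HU, 20362, 16718 and 21301 CPM in Thy-Noc and 17798, 19966 and 18935 CPM in DMSO. The HU libraries were low without overlap, and HSPD1 was 1.74-fold higher in Thy-Noc (log2 fold change -0.80 ± 0.13 SE, edgeR adjusted p = 0.0383). CCT4, a subunit of the chaperonin that folds tubulin and actin, was 1.46-fold higher (edgeR adjusted p = 0.0238). Of 33 chaperones 2 (6.06%) were called and 13 (39.4%) had an unadjusted p under 0.05, all higher in Thy-Noc, with a median of -0.35. The shares over all genes in that direction were 1.06% and 9.34%. Without HU 2, 1 of these calls was left, and without any other library 0. Total-count scaling called 2 chaperones, both higher in Thy-Noc.

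Interferon-stimulated genes had calls in 1 direction, higher in HU. Of 34 tested members 2 (5.88%) were called and 18 had an unadjusted p under 0.05, all higher in HU (0.696% and 10.1% over all genes). The median log2 fold change was 1.66 and 32 of the 34 were positive. Set against DMSO the median was 1.72 for HU and 0.10 for Thy-Noc. The promoter of EPSTI1 is shown because this called gene carries the core letters of an interferon-response element just before its start. The stretch is chr13:42992272-42992321 on the minus strand (RefSeq, GRCh38.p14), read 5′ to 3′ on the gene's strand, and capitals mark the match to GAAANNGAAA.
EPSTI1: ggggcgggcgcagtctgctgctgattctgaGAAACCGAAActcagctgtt
The match begins 50 bases before the start. These letters, sought on both strands, stood in 18 of 28 interferon-stimulated genes with a RefSeq promoter (64.3%), in 2.98% of promoters of tested genes and in 3.57% of all RefSeq promoters. The median log2 fold change was 1.48 for the 18 genes with the match and 1.40 for the 10 without it. Among called genes higher in HU, 7 of 63 with a promoter entry (11.1%) held it, and 5 of 93 (5.38%) among those higher in Thy-Noc.

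EPSTI1, an interferon-induced gene of epithelial and immune cells, read 49.9, 39.1 and 59.5 CPM in HU, 14.4, 15 and 15.6 CPM in Thy-Noc and 12.5, 8.87 and 10.6 CPM in DMSO. The HU libraries were all high, and the fold was 3.30 (log2 fold change 1.72 ± 0.20 SE, edgeR adjusted p = 0.0186). SAMD9L, an interferon-induced restriction factor, read 35.7, 12.1 and 29.7 CPM in HU and 3.63, 3.69 and 2.56 CPM in Thy-Noc (7.85-fold higher in HU, edgeR adjusted p = 0.0358). The HU libraries differed among themselves in this group, with HU 2 the lowest. IFIT3, an antiviral protein, read 131, 19.2 and 193 CPM in HU against 5.11, 1.95 and 4.38 CPM in Thy-Noc, and missed the threshold (log2 fold change 4.91 ± 1.03 SE, edgeR adjusted p = 0.0636). IRF7, the transcription factor that amplifies the interferon response, read 131, 60.8 and 177 CPM in HU against 9.37, 13.2 and 7.23 CPM in Thy-Noc (log2 fold change 3.63 ± 0.70 SE, edgeR adjusted p = 0.0547), also not called. In both genes every HU library was above every Thy-Noc library. Without HU 2 the edgeR fit called 6 interferon-stimulated genes, EPSTI1 and SAMD9L among them. It called 2 without DMSO 2, 1 without DMSO 1 or DMSO 3, and 0 without HU 1, HU 3 or any 1 of the Thy-Noc libraries, while DESeq2 called 15.

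Genes of MHC class I molecules and of their peptide loading held 3 calls, all higher in HU. TAP1, a subunit of the peptide transporter of the endoplasmic reticulum, read 482, 345 and 472 CPM in HU, 213, 231 and 245 CPM in Thy-Noc and 203, 204 and 208 CPM in DMSO. The groups did not overlap and the fold was 1.89 (log2 fold change 0.91 ± 0.14 SE, edgeR adjusted p = 0.0358). HLA-E, a class I molecule read by NK cells, was 1.70-fold higher in HU (edgeR adjusted p = 0.0383), and TAPBP, tapasin, which tethers TAP to class I molecules, 1.52-fold (edgeR adjusted p = 0.0383). These were 3 of 18 tested members (16.7%), beside 0.696% called higher in HU over all tested genes. The list median was 0.39, with 12 positive and 6 negative values. An unadjusted p under 0.05 was reached by 4 of the 18 (22.2%), all higher in HU. Over all genes that share was 10.1% higher in HU and 19.4% in either direction. Without HU 2, 2 of the 3 calls were left, and without any other library 0. SOCS1, a feedback inhibitor of cytokine receptors, was 2.43-fold higher in HU (edgeR adjusted p = 0.0485). The 17 tested MHC class II genes had no edgeR call, with 4 higher in HU and 2 higher in Thy-Noc at an unadjusted p under 0.05, and 2 in each direction called by DESeq2.

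NF-kB targets and regulators had calls in 1 direction, higher in HU, with 3 of 33 called (9.09%), 15 at an unadjusted p under 0.05, none of them higher in Thy-Noc, and a median of 0.96. Over all genes the shares higher in HU were 0.696% called and 10.1% at an unadjusted p under 0.05. TNF, the cytokine, read 14.9, 8.49 and 8.37 CPM in HU, 2.36, 3.35 and 1.96 CPM in Thy-Noc and 2.66, 2.37 and 2.25 CPM in DMSO (4.14-fold, edgeR adjusted p = 0.0383). NFKBIE, an inhibitor of NF-kB, read 113, 105 and 109 CPM in HU and 28.6, 32.7 and 49.2 CPM in Thy-Noc (2.97-fold, edgeR adjusted p = 0.0315). EBI3, a cytokine subunit first found in virus-infected B cells, read 147, 137 and 127 CPM in HU, 41.8, 59.4 and 49.8 CPM in Thy-Noc and 35.4, 21.4 and 38.7 CPM in DMSO (2.72-fold, edgeR adjusted p = 0.0392). In these 3 genes the HU libraries were high and the groups did not overlap. TRAF1, a receptor adaptor, stood at the edge of the test at 2.69-fold (edgeR adjusted p = 0.0502) and was not called. TNFSF9, the ligand of 4-1BB, was 2.56-fold higher in HU (edgeR adjusted p = 0.0142) and was named after its value was seen. The 3 NF-kB calls became 1 without DMSO 2 and 0 without any other library, although another member was then called beside it, for 2 in all without DMSO 2.

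A group of 10 chemokines and chemokine receptors was put together after the values were seen. Of these, 2 were called and 9 had an unadjusted p under 0.05, all higher in HU (0.696% and 10.1% over all genes). The median was 1.99 for HU minus Thy-Noc, 2.54 for HU minus DMSO and 0.34 for Thy-Noc minus DMSO. CCL3L3, a chemokine with near-identical copies so that its counts are uncertain, read 1189, 818 and 845 CPM in HU, 245, 235 and 242 CPM in Thy-Noc and 312, 160.5 and 224 CPM in DMSO (3.95-fold, edgeR adjusted p = 0.0253). CCR7, the receptor that guides lymphocytes into lymph nodes, read 296, 165 and 246 CPM in HU, 67.3, 57.1 and 53.8 CPM in Thy-Noc and 38.6, 22.1 and 44.8 CPM in DMSO (3.97-fold, edgeR adjusted p = 0.0383). Both genes were high in each HU library. CXCR4, the receptor for CXCL12, was the exception among the 10, with a log2 fold change of -0.10 and a 95% interval of -0.67 to 0.47. Both calls stood without DMSO 2 or HU 2, 1 stood without DMSO 1, and 0 stood without DMSO 3, HU 1, HU 3 or any 1 Thy-Noc library.

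Immediate early genes, which respond to signals without new protein synthesis, had the highest share of calls among the signalling lists. Of 22 tested members 5 (22.7%) were called and 15 had an unadjusted p under 0.05, all higher in HU (0.696% and 10.1% over all genes). The median was 1.0 on the log2 scale. JUNB, a subunit of the factor AP-1, read 100.2, 116 and 111 CPM in HU, 42.5, 47.5 and 44.4 CPM in Thy-Noc and 39.9, 40.3 and 43.1 CPM in DMSO. The spread within each group was small beside the gap, and JUNB was 2.43-fold higher in HU (log2 fold change 1.28 ± 0.10 SE, edgeR adjusted p = 0.0119). JUNB stayed called in 8 of the 9 fits that left out a library, all but the one without Thy-Noc 3. JUND, another AP-1 subunit, was 1.80-fold higher (edgeR adjusted p = 0.0383), and DUSP1, a phosphatase that switches off MAP kinases, 2.20-fold (edgeR adjusted p = 0.0414). IER5 was 1.74-fold higher (edgeR adjusted p = 0.0385), and BTG1, an antiproliferative gene, 1.73-fold at 33.2 to 35.9 CPM in HU against 19.9 to 20.5 CPM (edgeR adjusted p = 0.03). The 5 calls became 2 without HU 2, 0 without Thy-Noc 3 and 1 without any other library. FOSB (log2 fold change 2.63, edgeR adjusted p = 0.0598) and EGR1 (3.19, edgeR adjusted p = 0.0802) were not called.

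PPP1R15A, the phosphatase subunit GADD34 that restores translation after stress, read 71.4, 60.9 and 43.4 CPM in HU, 10.3, 7.64 and 5.45 CPM in Thy-Noc and 6.15, 6.76 and 6.47 CPM in DMSO. All HU libraries were high, and the fold was 7.5 (log2 fold change 2.91 ± 0.29 SE, edgeR adjusted p = 0.0131). PPP1R15A was the 1 called gene among 31 genes of the ATF4 and unfolded protein responses, and its call was lost without HU 1, Thy-Noc 2 or Thy-Noc 3. The list's median was -0.13, and 0.02 with total-count scaling. KDM6B, a demethylase of histone H3 induced by inflammatory signals, was 3.09-fold higher in HU (edgeR adjusted p = 0.0358) and was named after its value was seen. The same holds for ECE1, an endothelin-processing protease, at 268 to 321 CPM in HU against 148 to 161 CPM in Thy-Noc (1.92-fold, edgeR adjusted p = 0.0131).

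**Figure D3:**
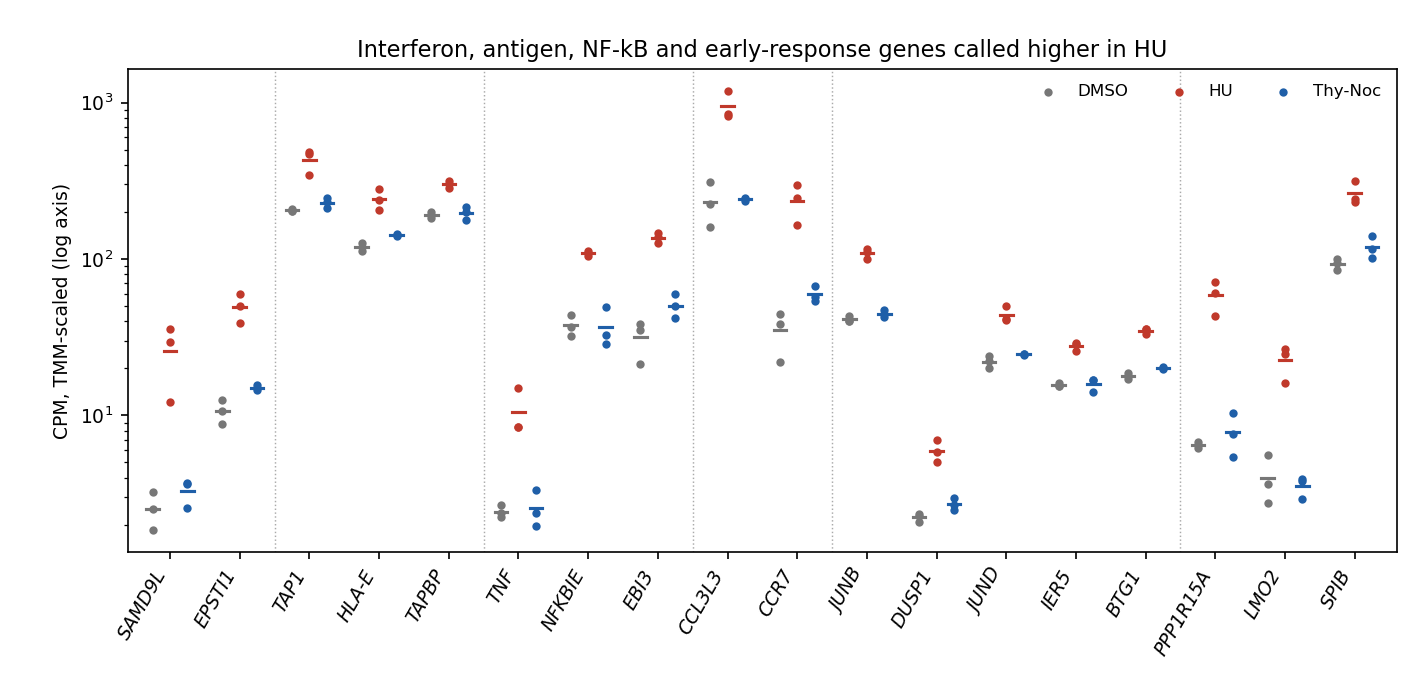
CPM per library on a log axis (y) for genes called higher in HU (x), with DMSO in grey, HU in red and Thy-Noc in blue, and a bar at each group's mean. From left to right are interferon-stimulated, antigen-presentation, NF-kB, chemokine, immediate early and 3 further genes. The red points lie above the blue ones in each gene, and the lowest red point of SAMD9L, 12.1 CPM, is HU 2.

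Regulators of the germinal centre, the stage from which Burkitt lymphoma derives, moved in both directions. LMO2, a transcriptional adaptor of germinal-centre cells, read 24.7, 16.1 and 26.7 CPM in HU, 3.8, 2.91 and 3.95 CPM in Thy-Noc and 5.62, 2.73 and 3.62 CPM in DMSO (6.33-fold higher in HU, edgeR adjusted p = 0.0238). SPIB, an ETS factor of B cells, read 318, 242 and 231 CPM in HU and 102, 139.6 and 116 CPM in Thy-Noc (2.22-fold higher in HU, edgeR adjusted p = 0.0354). BACH2, a repressor that delays plasma-cell differentiation, read 3.39, 5.91 and 3.81 CPM in HU, 13.6, 11.6 and 9.92 CPM in Thy-Noc and 11.4, 11.3 and 12 CPM in DMSO. BACH2 was thus the low one in HU, 2.68-fold higher in Thy-Noc (edgeR adjusted p = 0.0443). GNA13, a G protein that confines germinal-centre cells, was 1.37-fold higher in Thy-Noc (edgeR adjusted p = 0.0387). The list of 31 had a median of -0.10, which became 0.06 with total-count scaling. It held 2 calls in each direction, beside 0.696% called higher in HU and 1.06% higher in Thy-Noc over all genes. Of the 2 calls higher in HU, 1 was left without DMSO 1, DMSO 2 or HU 2, and of the 2 higher in Thy-Noc 1 was left without HU 2. All other fits without 1 library left none.

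Of 15 plasma-cell and secretion genes 2 (13.3%) were called higher in Thy-Noc, beside 1.06% over all genes. MZB1, a chaperone of antibody assembly, read 158, 160.4 and 131 CPM in HU, 294, 289 and 338 CPM in Thy-Noc and 297, 229.9 and 229.6 CPM in DMSO (2.05-fold, edgeR adjusted p = 0.03). TXNDC5, a disulfide isomerase of the endoplasmic reticulum, was 1.38-fold higher (edgeR adjusted p = 0.0385). Without DMSO 1, 1 of these calls was left, and without any other library 0. ACAT2, an enzyme of the sterol pathway, was the 1 called gene among 31 of cholesterol and fatty acid synthesis, 1.63-fold higher in HU (edgeR adjusted p = 0.0385), and was called in no fit without 1 library.

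For 8 of the 199 called genes the DMSO mean lay nearer to HU than to Thy-Noc, and VEGFA, ZNF189 and FDXR were among them. VEGFA, the angiogenic growth factor induced by hypoxia, read 85.8, 79.1 and 64.2 CPM in HU, 6.67, 2.76 and 2.19 CPM in Thy-Noc and 69.8, 48.2 and 43.5 CPM in DMSO. The Thy-Noc libraries were low, and VEGFA was 19.7-fold higher in HU (log2 fold change 4.30 ± 0.49 SE, edgeR adjusted p = 0.0173). Thy-Noc minus DMSO was -3.80 on the log2 scale and was not called (edgeR adjusted p = 0.121). VEGFA has 32 annotated transcripts, was the 1 called gene among 27 of glycolysis and hypoxia, and lost its call without HU 1, Thy-Noc 2 or Thy-Noc 3. ZNF189, a zinc-finger gene, read 9.55, 8.22 and 10.2 CPM in HU, 1.68, 1.48 and 2.35 CPM in Thy-Noc and 5.69, 6.94 and 6.45 CPM in DMSO (5.08-fold higher in HU, edgeR adjusted p = 0.0131). Its HU libraries lay above those of DMSO and its Thy-Noc libraries below them, and its call was lost without HU 1 or Thy-Noc 3. FDXR, a mitochondrial reductase and p53 target, went the other way, at 12.4, 19.3 and 9.35 CPM in HU, 135, 69.6 and 95.7 CPM in Thy-Noc and 21.5, 28.2 and 19.9 CPM in DMSO. That is 7.31-fold higher in Thy-Noc (edgeR adjusted p = 0.0235), with Thy-Noc minus DMSO at 2.11 (edgeR adjusted p = 0.356). The HU libraries of FDXR lay below those of DMSO, with HU minus DMSO at -0.76 (edgeR adjusted p = 0.254). FDXR was the 1 call among 25 p53 targets and was left without DMSO 2, HU 2 or Thy-Noc 2 and in no other such fit. The list as a whole did not share its direction, with a median of 0.23 and 17 positive values. At an unadjusted p under 0.05, 7 p53 targets were higher in HU and 3 higher in Thy-Noc. Over all genes these shares were 10.1% and 9.34%. DESeq2 called 4 p53 targets higher in HU and 3 higher in Thy-Noc.

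FCRL3, an inhibitory receptor of B cells, was lower than in DMSO under both treatments, and furthest in Thy-Noc. It read 6.86, 10.4 and 8.93 CPM in HU, 1.46, 1.41 and 2.13 CPM in Thy-Noc and 37.4, 26.4 and 41.2 CPM in DMSO, and no 2 groups overlapped. The log2 fold change was -2.00 for HU minus DMSO (edgeR adjusted p = 0.0222), -4.39 for Thy-Noc minus DMSO (edgeR adjusted p = 0.00518) and 2.39 ± 0.28 SE for HU minus Thy-Noc (edgeR adjusted p = 0.0186). FCRL3 was the 1 called gene among 27 of B-cell identity and the B-cell receptor, and was left without DMSO 2, DMSO 3 or HU 2 and in no other such fit.

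The other 3 genes called between Thy-Noc and DMSO were also called between HU and DMSO, and were not called between the treatments. SLBP, the protein that binds the stem-loop of replication-dependent histone mRNA, read 254, 230.3 and 288 CPM in HU, 232, 286 and 263 CPM in Thy-Noc and 77.4, 73.8 and 79.1 CPM in DMSO. The treated groups overlapped and both lay above DMSO, and HU minus Thy-Noc was -0.02 with a 95% interval of -0.29 to 0.25. CRIP3, a LIM-domain gene, read 23.7, 24.4 and 25.1 CPM in HU, 33.6, 33.3 and 42.4 CPM in Thy-Noc and 0.0634, 0.084 and 0.216 CPM in DMSO. The Thy-Noc libraries of CRIP3 lay above those of HU, with an interval for HU minus Thy-Noc of -1.52 to 0.37. SETD2, the histone H3 lysine methyltransferase of transcribed genes, read 174, 111 and 135 CPM in HU, 51, 111 and 47.9 CPM in Thy-Noc and 1.76, 1.36 and 1.12 CPM in DMSO. HU minus Thy-Noc was 1.0 with an interval of 0.13 to 1.87 (edgeR adjusted p = 0.205). A gene's value may hold only part of its reads, so these levels may not be those of the whole gene.

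**Figure D4:**
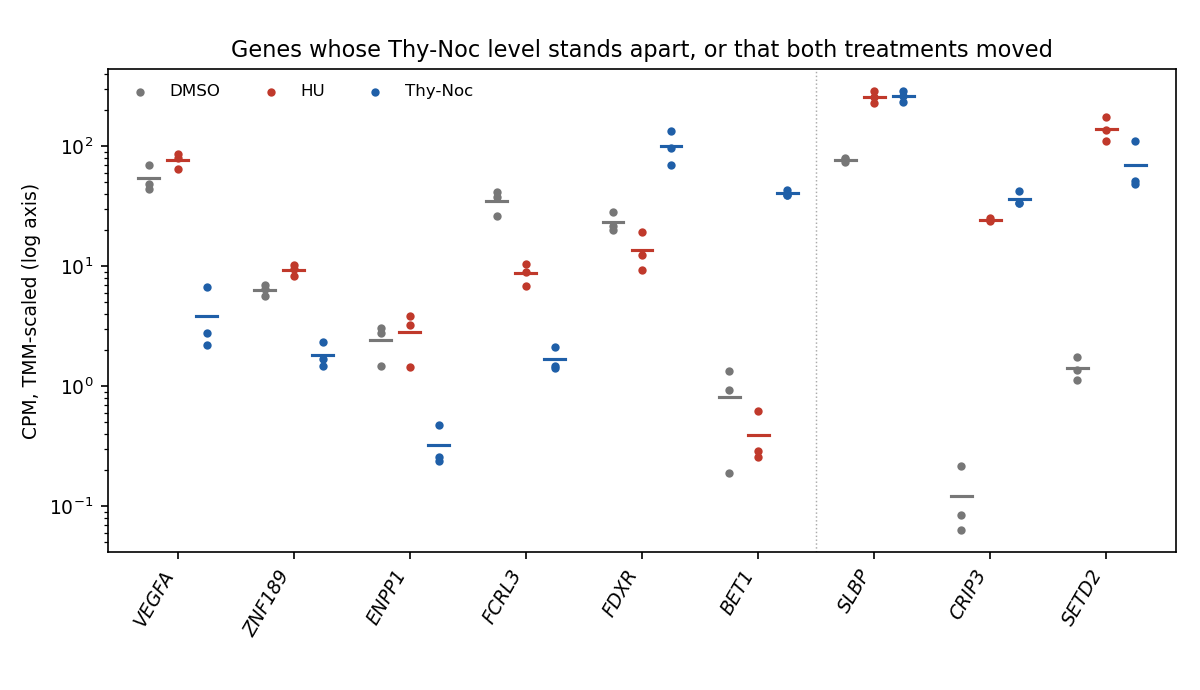
CPM per library on a log axis (y) for 6 genes in which HU and Thy-Noc were called apart and 3 genes that both treatments moved from DMSO (x), with DMSO in grey, HU in red and Thy-Noc in blue, and a bar at each group's mean. In VEGFA, ZNF189, ENPP1, FCRL3, FDXR and BET1 the blue points stand apart, and in SLBP, CRIP3 and SETD2 the grey points lie below both others.

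Lists of S phase showed few calls. TIMELESS, a replication-fork protein, read 55.3, 93.3 and 67.7 CPM in HU, 193, 194 and 187 CPM in Thy-Noc and 146, 129 and 107 CPM in DMSO. Its HU libraries were low without overlap, and it was 2.65-fold higher in Thy-Noc (edgeR adjusted p = 0.0345). TIMELESS was the 1 call among 46 genes of replication origins and forks (2.17%, beside 1.75% over all genes). Of the fits without 1 library, only that without HU 2 left it called. The median of those 46 was -0.13, or 0.02 with total-count scaling. Of 32 G1/S genes edgeR called none, and the median was 0.18. At an unadjusted p under 0.05, 9 of the 32 were higher in HU and 2 in Thy-Noc (10.1% and 9.34% over all genes). DESeq2 called 3 of them higher in HU and 2 higher in Thy-Noc, and limma 1 higher in HU. CCNE2, cyclin E2, read 66.4, 35.1 and 101 CPM in HU, 5.59, 13.6 and 15.2 CPM in Thy-Noc and 9.91, 11 and 9.7 CPM in DMSO. All HU libraries of CCNE2 were above the others, but the test was missed (log2 fold change 2.56 ± 0.49 SE, edgeR adjusted p = 0.0545).

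Of 38 genes of the deoxyribonucleotide pool and nucleotide synthesis edgeR called none, and the median was -0.34. At an unadjusted p under 0.05, 10 of the 38 were higher in Thy-Noc and 1 in HU (9.34% and 10.1% over all genes). DESeq2 called 7 of them and limma 1, all higher in Thy-Noc. RRM2B, a ribonucleotide reductase subunit, read 94.1, 99.9 and 106 CPM in HU and 151, 162 and 154 CPM in Thy-Noc, without overlap (log2 fold change -0.64 ± 0.13 SE, edgeR adjusted p = 0.0605). TK1, the kinase that salvages thymidine, had a log2 fold change of 0.52 with a 95% interval of 0.06 to 0.98 (edgeR adjusted p = 0.209). The 11 replication-dependent histone genes that passed the filter had a median of 0.94 and no edgeR call, and 2 had an unadjusted p under 0.05, both higher in HU, where DESeq2 also called 2. One of them, H2BC12, read 25.2, 10.5 and 16.7 CPM in HU and 10.2, 5.88 and 7.09 CPM in Thy-Noc, and was not called (edgeR adjusted p = 0.153). Of 53 genes of DNA damage checkpoints and repair edgeR called none, with 5 at an unadjusted p under 0.05 in each direction. That share, 18.9%, was close to the 19.4% over all genes. DESeq2 called 1 of the 53 higher in HU and 4 higher in Thy-Noc.

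For some genes tied to these treatments or often used as references, libraries of 1 group differed by 10-fold or more after 0.5 CPM was added. RRM1, the large subunit of ribonucleotide reductase, read 1.54, 0.829 and 1.95 CPM in HU, 444, 471 and 523 CPM in Thy-Noc and 0.609, 538 and 0.623 CPM in DMSO (edgeR adjusted p = 0.166). HU and Thy-Noc were each tight and did not overlap, while the DMSO libraries of RRM1 stood at both levels, and the gene was not called. TUBB, a beta-tubulin, read 23.1, 7.81 and 45 CPM in HU and 5466, 1.39 and 1.74 CPM in Thy-Noc. ACTB, cytoplasmic actin, read 15764, 14584 and 3711 CPM in HU and 23730.5, 223 and 16145 CPM in Thy-Noc. PLK1, a mitotic kinase, read 3.02, 0.972 and 33.5 CPM in HU and 67.6, 20.5 and 36.2 CPM in Thy-Noc, with overlap. None of these 4 genes was called.

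**Figure D5:**
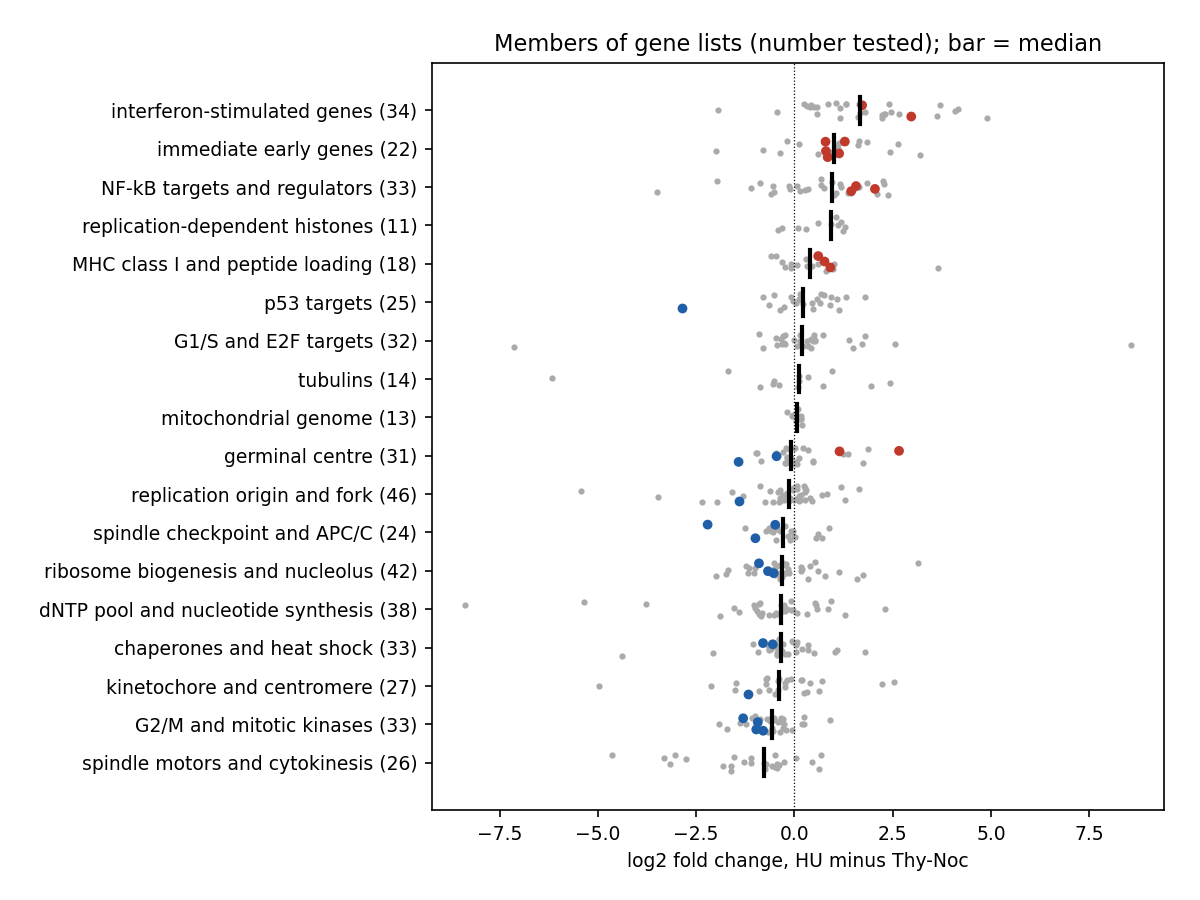
Log2 fold change of HU over Thy-Noc (x) for each tested member of 18 gene lists (y), with called members in red (higher in HU) or blue (higher in Thy-Noc), other members in grey, and a black bar at each list's median. The bars of the mitotic lists lie left of zero, down to -0.76 for motors and cytokinesis, and those of the interferon, NF-kB and immediate early lists lie right of it, at 1.66, 0.96 and 1.0.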

How the data were processed

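The authors deposited 1 table of whole numbers per gene and library, taken here to be expected counts and used as deposited. The table's name speaks of CPM, but its columns sum to between 74940755 and 110485145. Per the submitters' processing notes, FastQC, Trim Galore, STAR and DESeq2 were used with GRCh38. The sources used here name no counting tool, annotation or strand setting, so a gene's value may hold only part of its reads. Gene symbols came from a table of gene names (15393 of 15436 IDs matched), positions from GENCODE 29 (15272), and promoters from RefSeq GRCh38.p14 (8657 of 11346 tested genes). Counts were tested with edgeR 4.0.16 (R 4.3.3): TMM scaling, a quasi-likelihood fit of 3 groups over all 9 libraries with 6 residual degrees of freedom, Benjamini-Hochberg adjustment over 11346 genes and a threshold of 0.05. CPM are on the TMM scale. The script was tested on simulated counts, where it called 20 of 100 genes changed 2-fold and 48 of 100 changed 4-fold. Of its 72 calls there, 4 were wrong. A list without an edgeR call can thus still hold differences of this size.

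Members and lists were chosen with earlier results of these data known. Genes were named by rule: the 15 largest differences in each direction among called genes whose mean reached 5 CPM, up to 4 called members of each list per direction, and a fixed set. The families of high-mobility-group, FAM72, splicing, mitochondrial ribosomal, cohesin and chemokine genes, and single genes outside the rule, were named after their values were seen. Alternatives were other filters, scalings, DESeq2 1.42.0, limma 3.58.1, a replicate block and leaving out each library. 2 of them, robust dispersions and a limit on annotated transcripts, were chosen after seeing the data. A marker of the fixed list is not reported here.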

Additional observations from a re-analysis of the deposited data

How the results depend on the processing

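The count of 199 called genes (79 higher in HU, 120 higher in Thy-Noc) ranged from 1 to 110 when 1 library was left out. Those higher in HU ranged from 0 to 54 and those higher in Thy-Noc from 1 to 56. It was 72 (35 and 37) with no filter on low counts, 313 with a CPM minimum of 5 (137 higher in HU), 18 (6 and 12) with only the 6 libraries compared and 1826 (900 and 926) with DESeq2. limma gave 326 with 0.5 CPM added (148 higher in HU), 311 with 0.1 CPM (138) and 346 with 1 CPM (165 and 181). Genes unsteady between replicates, left out, gave 472 (239 and 233), and genes with at most 3 annotated transcripts 348 (172 higher in HU), an alternative chosen after seeing the data. Total-count scaling gave 157, with 46 higher in Thy-Noc. The causes were not tested, except that fewer libraries or genes entered some fits. The tubulin median of 0.11 became -0.13 with a CPM minimum of 5 and ranged from -0.076 (without Thy-Noc 2) to 0.26 when 1 library was left out.

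With the replicate number as a block edgeR called 0 genes (0 higher in HU, 0 higher in Thy-Noc), and 1956 had an unadjusted p under 0.05. Correlations of same-numbered HU and Thy-Noc libraries' deviations were 0.040, 0.039 and 0.029, the highest for each HU library among its pairs with Thy-Noc. Same-numbered DMSO and HU libraries gave -0.016, 0.004 and -0.035. Pairs with unlike numbers reached a similar size, at 0.033 for DMSO 1 with HU 3 and -0.054 for DMSO 1 with Thy-Noc 3. These values do not show whether the numbers pair the libraries, and the labels do not say so. All 111 called genes among those named and looked up in families kept their direction in every alternative. The lack of overlap between HU and Thy-Noc in called genes left little room for another outcome. DESeq2 called all 111, and 18 stayed called in at least 50% of the fits without 1 library. At a median of 1187 counts per tested gene and 3 libraries a group, differences within the spread between libraries were not detectable.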

Other observations

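A few called genes were near 0 CPM in every library of one treatment. With under 1 CPM in each library of one group and a mean of at least 5 CPM in the other, 42 genes were near zero in HU and 24 in Thy-Noc, and 4 of these were called. ABHD17B, which removes palmitate from proteins, read 0.228, 0.415 and 0.315 CPM in HU, 11.8, 10.7 and 10.8 CPM in Thy-Noc and 9.62, 10.5 and 9.59 CPM in DMSO. Its HU libraries were the low ones, at a 34.7-fold higher level in Thy-Noc (log2 fold change -5.12 ± 0.27 SE, edgeR adjusted p = 0.00229), the smallest adjusted p of the comparison. GNG2, a G protein subunit, read 0.177, 0.428 and 0.4 CPM in HU and 10.2, 7.27 and 14.2 CPM in Thy-Noc (edgeR adjusted p = 0.0186). BET1, a vesicle-fusion protein of the Golgi, read 0.291, 0.622 and 0.257 CPM in HU, 42.9, 39.3 and 39.4 CPM in Thy-Noc and 0.19, 0.933 and 1.34 CPM in DMSO (edgeR adjusted p = 0.023). WDR19, a protein of cilium transport, read 27, 16.8 and 21.1 CPM in HU and 0.451, 0.247 and 0.984 CPM in Thy-Noc (edgeR adjusted p = 0.023). ZEB1, a zinc-finger repressor, went the same way at 90.6, 99.1 and 121 CPM in HU against 0.369, 0.947 and 1.08 CPM (edgeR adjusted p = 0.0346). A gene's value may hold only part of its reads, so a value near 0 need not mean a silent gene. ABHD17B has 2 annotated transcripts, BET1 8, GNG2 16 and WDR19 18, and the part of this in the results was not tested.

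The genes higher in HU lay unevenly over the genome. Of the 79, 17 (21.5%) lay on chromosome 6, beside 5.31% of tested genes, and 15 (19%) on chromosome 19, beside 7.18%. Chromosome 6 holds the MHC, with TAP1, TAPBP, HLA-E and TNF, and chromosome 19 holds JUNB, JUND, PPP1R15A, SPIB and EBI3. No test of these shares was made. Among 316 ZNF zinc-finger genes 5 (1.58%) were called, all higher in HU, beside 1.75% called and 0.696% called higher in HU over all tested genes, and 207 had positive log2 fold changes, where 50.7% of all tested genes did. By number of annotated transcripts, the share of called genes was 2.87% for genes with 1, 2.69% for 2 to 3, 1.86% for 4 to 10 and 0.938% for over 10. The share of genes with a 10-fold spread within a group was 1.39%, 5.8%, 14.8% and 26.3% in the same order. Of 18 mitochondrial tRNAs 3 (16.7%) were called, all higher in Thy-Noc, beside 1.06% over all genes, and none stayed called without any 1 library. The family moved both ways. At an unadjusted p under 0.05, 3 of the 18 were higher in HU and 6 higher in Thy-Noc, and DESeq2 called 3 and 6. The family median of -0.09 became 0.06 with total-count scaling.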
